A study of Mus musculus with 10 samples.

Results

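Neuronal microtubule-associated proteins and stathmins were examined as 10 genes chosen by name: Map1a, Map1b, Map2, Mapt, Dcx, Stmn1, Stmn2, Stmn3, Stmn4 and Tubb3. They were found by symbol among the 30935 gene IDs of a table of RNA-seq counts, and all 10 were present and passed the filter on low counts that left 15288 genes for testing. RNA came from midbrains of mice at embryonic day 14.5. The wild-type group was Rbfox1 +/+ and the deletion group was Rbfox1 ΔHAR.321/ΔHAR.321, which the sample labels call 2xHAR.321 Knockout, that is, a loss of the element HAR.321 on both alleles. Rbfox1 encodes an RNA-binding protein that acts on splicing in neurons. Each group held 5 libraries, wild-type 1, 2, 4, 5 and 6 and deletion 2, 3, 4, 5 and 6, described as independent biological samples. Not given in the sources used here were strain, sex, litter and the route by which the allele was made.

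Microtubules are hollow polymers of alpha- and beta-tubulin that fill axons and dendrites. Structural microtubule-associated proteins bind along the polymer and stabilise or space it, doublecortin stiffens it in migrating and newly formed neurons, and stathmins hold free tubulin dimers and favour disassembly. In the embryonic brain these genes switch on or rise as progenitors become neurons, and several of them, Tubb3 and Dcx in particular, are used as labels of young neurons.

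The libraries held 16246892 to 20255728 counts each. Markers of the region fitted the label: Otx2 stood at 121.5 to 223 CPM (the count scaled to the size of the library, with TMM factors) and En2 at 111 to 187 CPM, while the hindbrain gene Hoxb2 had no count in any library, and Hoxa2 of the hindbrain and Emx1 of the forebrain did not exceed 0.838 and 1.66 CPM. These regional genes were chosen after the data were seen. Rbfox1 itself averaged 149 ± 11.0 CPM without and 161 ± 13.7 CPM with the deletion (SD, n = 5; log2 fold change 0.11, SE 0.07, edgeR adjusted p = 0.606). The loss of an element need not alter this level, which therefore does not check the genotype. Over all genes, edgeR's quasi-likelihood test called 9 of 15288, or 0.0589%, at a threshold of 0.05 on the Benjamini-Hochberg adjusted p. Each of the 9 was lower, but the directions depended on the fit: DESeq2 called 133 higher and 135 lower, edgeR without deletion 4 called 137 higher and 220 lower, and without wild-type 2 it called 57 higher and 31 lower.

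The 10 genes together took 1.25% to 1.41% of the counts of a library. Per kilobase of the longest annotated transcript, which makes different genes comparable, Stmn1 led the 10 in the wild-type group with 1942 ± 49.9 CPM per kb and by its mean over all libraries ranked 7 among the 14118 tested genes with a length, where Map1b ranked 247 and Map1a 6471. Tubb3, the neuron-specific beta-tubulin, followed with 1369 ± 24.5 CPM per kb. Stmn3 (486 ± 28.5), Stmn2 (373 ± 23.3), Map2 (282 ± 8.78) and Mapt (252 ± 27.4 CPM per kb) came next, and then Stmn4 (185 ± 12.8), Dcx (180 ± 4.79), Map1b (136 ± 14.7) and Map1a (8.80 ± 1.15 CPM per kb; SD, n = 5 for each). In this order Stmn1, Tubb3, Stmn3, Stmn2, Mapt and Map1b each stood above the next gene in all 10 libraries. Map2 lay above Mapt in 8 of 10 and Dcx above Map1b in 7 of 10, and Stmn4 above Dcx in only 3 of 10. Within the wild-type group Dcx (172 to 185 CPM per kb) nevertheless stood above Map1b (120 to 157 CPM per kb) without overlap. The ranges of Map2 and Mapt, and of Stmn4 and Dcx, overlapped there. The order depends on the transcript taken as the length, and the wild-type order changed with the median length of each gene's coding transcripts. Mapt (915 CPM per kb) and Map2 (908 CPM per kb) moved ahead of Stmn2 (614 CPM per kb) and Stmn3 (486 CPM per kb). Stmn2 moved ahead of Stmn3, and Dcx (452 CPM per kb) and Map1b (222 CPM per kb) ahead of Stmn4 (196 CPM per kb). In the deletion group, by the longest transcript, Dcx (184 ± 30.0) and Map1b (179 ± 23.9) stood ahead of Stmn4 (172 ± 8.16 CPM per kb). Map1a was last by either length, although its transcript is as long as that of Map1b.

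Deletion was then compared with wild-type for each gene. None of the 10 passed edgeR's test over all genes, beside a background of 0.0589%. DESeq2 called 3 of the 10, Map1b and Map1a as higher and Stmn1 as lower in the deletion group, beside 3.28% of the 8174 genes to which it gave an adjusted p. Limma-voom called none of the 10, beside 0.0589% of all genes. At an unadjusted p under 0.05 in edgeR, 3 of the 10 were higher (Map1a, Map1b and Mapt) and 2 lower (Stmn1 and Stmn3), beside 5.62% and 4.92% of all genes in those directions and 10.5% in either. The median log2 fold change of the 10 was -0.01, and that of all tested genes was 0.00 to 2 decimals. The median covers values that differed by role. The 4 structural proteins all had positive values, with a median of 0.23, but Map2 was near 0 at 0.01 (SE 0.08). The 4 stathmins all had negative ones, with a median of -0.12, but Stmn2 was near 0 at -0.02 (SE 0.07). With the trend on transcript length removed, as described below, 3 of the 4 structural proteins were higher, and the medians were 0.17 and -0.01. The structural proteins also have the longer transcripts, 5253 to 11825 bases, against 1060 to 3413 bases for the stathmins. The genes were chosen with earlier results of these data known, so these counts describe them and do not test the set.

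**Figure D1:**
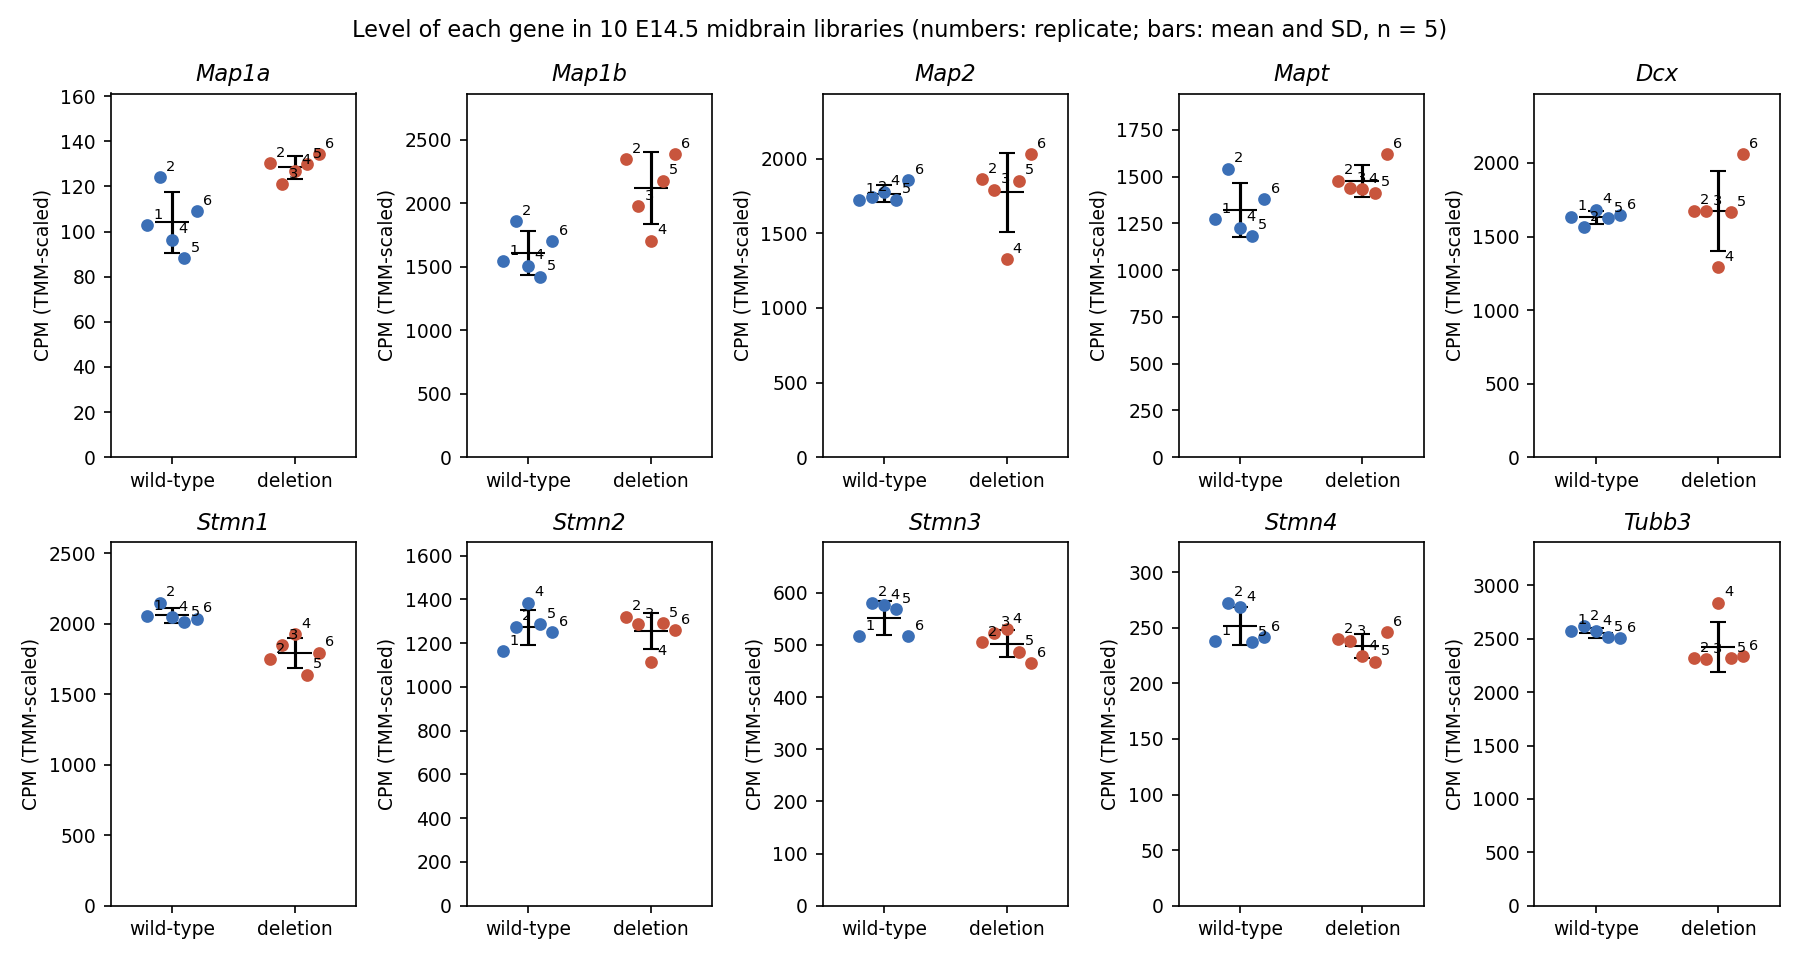
Each panel plots 1 gene, with the level in CPM (TMM-scaled) from 0 on the vertical axis and the libraries of each group as points numbered by replicate. Bars give the mean and SD (n = 5). Map1a and Map1b stand higher in most deletion libraries, Stmn1 is lower in all 5, and deletion 4 stands apart from the other deletion libraries for Map2, Dcx and Tubb3.

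Among the structural proteins, Map1b showed the largest difference. Map1b encodes a large protein of growing axons that is made early in development. Its level was 1542, 1858, 1508, 1420 and 1697 CPM in wild-type 1, 2, 4, 5 and 6. In deletion 2, 3, 4, 5 and 6 it was 2344, 1974, 1704, 2177 and 2385 CPM. Each of the 5 deletion libraries exceeded the wild-type mean, and 4 of them exceeded every wild-type library, but deletion 4 was below wild-type 2, so the groups overlapped. The means were 1605 ± 173 and 2117 ± 282 CPM (SD, n = 5), or 0.40 on the log2 scale (SE 0.09, 95% interval 0.21 to 0.58), which did not pass edgeR's test (Benjamini-Hochberg adjusted p = 0.0757) and was called by DESeq2 (adjusted p = 0.00388). By edgeR's unadjusted p it ranked 38th among the 15288 genes. Without deletion 4, edgeR called Map1b (log2 fold change 0.47, adjusted p = 0.00198), in a fit that called 2.31% of all genes, and it did so without wild-type 2 as well (0.45, adjusted p = 0.0313; 0.57% of all genes). Leaving out any other library gave no call of Map1b in edgeR, with adjusted p up to 0.231.

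Map1a, the relative of Map1b that becomes prominent in mature neurons, was far less abundant and differed in the same direction. The wild-type libraries held 103, 124, 96.4, 88.1 and 109 CPM, in the order above. The deletion libraries held 130.4, 121, 127, 129.9 and 134 CPM. Here the deletion libraries were close together, between 121 and 134 CPM, and only wild-type 2 reached into their range. The log2 fold change was 0.30 (SE 0.08, 95% interval 0.15 to 0.46), with an adjusted p of 0.102 in edgeR and 0.0183 in DESeq2. Unlike Map1b, Map1a in deletion 4 was as high as in the other deletion libraries. Leaving out wild-type 2 gave 0.37 and a call in edgeR (adjusted p = 0.0247), and leaving out deletion 4 gave 0.31 and a call (adjusted p = 0.0328). Those fits called 0.57% and 2.31% of all genes. With any other library left out, edgeR did not call Map1a (adjusted p up to 0.326).

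The promoters of this pair are shown because both genes were higher in the deletion group in DESeq2. That of Stmn3 is set beside them, a stathmin with a negative log2 fold change that neither edgeR nor DESeq2 called. The sequences run 5′ to 3′ from 250 bases before to 50 bases after the annotated start, from RefSeq for GRCm38.p6, another build than the mm39 of the counts. RefSeq promoters were matched for 6 of the 10 genes. Capitals mark the GC box GGGCGG on either strand, where overlapping copies form 1 longer run.
Map1b promoter, chr13:99516553-99516852, minus strand: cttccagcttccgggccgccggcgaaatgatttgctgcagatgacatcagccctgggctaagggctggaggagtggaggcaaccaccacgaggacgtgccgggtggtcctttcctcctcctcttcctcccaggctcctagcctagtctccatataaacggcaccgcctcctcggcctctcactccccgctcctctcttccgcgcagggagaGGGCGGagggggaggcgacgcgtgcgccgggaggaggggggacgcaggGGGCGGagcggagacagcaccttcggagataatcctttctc
Map1a promoter, chr2:121289352-121289651, plus strand: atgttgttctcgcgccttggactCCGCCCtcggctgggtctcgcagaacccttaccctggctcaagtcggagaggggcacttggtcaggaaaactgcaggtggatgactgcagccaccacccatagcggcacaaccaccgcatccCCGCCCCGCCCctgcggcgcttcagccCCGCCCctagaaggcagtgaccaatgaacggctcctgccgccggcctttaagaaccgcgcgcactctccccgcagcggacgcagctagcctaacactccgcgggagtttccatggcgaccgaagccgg
Stmn3 promoter, chr2:181314451-181314750, minus strand: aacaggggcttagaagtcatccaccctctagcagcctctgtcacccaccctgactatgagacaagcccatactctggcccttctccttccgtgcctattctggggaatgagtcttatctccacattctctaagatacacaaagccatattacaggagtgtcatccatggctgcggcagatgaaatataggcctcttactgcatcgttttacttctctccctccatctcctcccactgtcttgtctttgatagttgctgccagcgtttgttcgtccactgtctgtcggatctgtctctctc
GC boxes occurred 2 times in the Map1b and 4 times in the Map1a window, and not in that of Stmn3. Other windows did not share this contrast: that of Map2 held 5 at a log2 fold change of 0.01, and that of Tubb3 held 2 at -0.08. Of 32851 promoter windows of 300 bases, 35.7% held at least 1. The Map1b and Map1a windows were 65.7% G and C with 23 and 27 CpG pairs, against a median of 52.7% and 7 over all windows, and Stmn3 had 49.7% and 6. Map2 had 77.7% and 37, and Tubb3 had 67.3% and 26. The TATA box TATAAA, searched on both strands, occurred 1 time in the Map1b window and in neither the Map1a nor the Stmn3 window. Each window of Dcx, at a log2 fold change of 0.04, also held 1. The Dcx windows held 0 GC boxes and 3 CpG pairs, at 43% to 44.7% G and C. Of all windows, 13.6% held TATAAA. These matches describe the letters of the windows only.

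Mapt and Map2 complete the structural group. Mapt encodes tau, an axonal protein. Its wild-type levels were 1272, 1543, 1227, 1185 and 1382 CPM, and its deletion levels were 1479, 1437, 1432, 1416 and 1621 CPM. Every deletion library lay above the wild-type mean, while wild-type 2 exceeded 4 of them. The log2 fold change was 0.16 (SE 0.07, 95% interval 0.01 to 0.31; edgeR adjusted p = 0.441, DESeq2 adjusted p = 0.257). Map2, whose large forms mark dendrites, had nearly equal means of 1766 ± 54.9 and 1775 ± 264 CPM (SD, n = 5). The wild-type libraries were tight, at 1727, 1742, 1779, 1727 and 1857 CPM. The deletion libraries were spread over 1866, 1794, 1330, 1853 and 2031 CPM. Deletion 4 was the lowest and deletion 6 the highest of all 10 libraries. The log2 fold change of 0.01 (SE 0.08, 95% interval -0.17 to 0.18) changed sign with the scaling: it was -0.00 with upper-quartile factors, and it was negative in 12 of 19 alternatives.

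Dcx encodes doublecortin, the microtubule-binding protein of migrating neurons, and followed Map2 in its pattern. The wild-type libraries held 1635, 1563, 1682, 1627 and 1647 CPM. The deletion libraries held 1677, 1672, 1290, 1664 and 2060 CPM. As with Map2, 3 deletion libraries were near the wild-type level, deletion 4 was the lowest of the 10 and deletion 6 the highest. The log2 fold change was 0.04 (SE 0.09, 95% interval -0.14 to 0.22; edgeR adjusted p = 0.933).

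Among the stathmins, Stmn1 showed the largest difference. Stmn1, also called oncoprotein 18, is made by dividing cells as well as neurons. It stood at 2051, 2149, 2045, 2012 and 2035 CPM in the wild-type libraries. In the deletion libraries it stood at 1750, 1847, 1924, 1639 and 1795 CPM. Every deletion library was below every wild-type library, a separation downward found for 1.26% of all tested genes, upward for 1.22% and either way for 2.49%. It was the only one of the 10 genes whose groups did not overlap. The means were 2058 ± 52.9 and 1791 ± 107 CPM (SD, n = 5), or -0.20 as a log2 fold change (SE 0.06, 95% interval -0.33 to -0.07), not past edgeR's test (adjusted p = 0.186) and called by DESeq2 (adjusted p = 0.00912). Without deletion 4 it was -0.23 and edgeR called it (adjusted p = 0.0256), in a fit that called 2.31% of all genes. With any other library left out, edgeR did not call Stmn1 (adjusted p up to 0.389). The handling of reads shared between near-identical copies of a gene was not given in the sources used here.

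The other 3 stathmins carry a membrane-anchoring extension and are largely neuronal. Stmn3 stood at 517, 581, 576, 569 and 517 CPM in wild-type 1, 2, 4, 5 and 6, and at 506, 524, 531, 487 and 466 CPM in deletion 2, 3, 4, 5 and 6. No deletion library reached the wild-type mean, but deletion 3 and deletion 4 were above the lower wild-type libraries. Its log2 fold change was -0.14 (SE 0.06, 95% interval -0.27 to -0.00; edgeR adjusted p = 0.461). Stmn4 was the least abundant stathmin per kilobase, with group means of 252 ± 17.4 CPM (wild-type) and 234 ± 11.1 CPM (deletion; SD, n = 5). All 5 deletion libraries of Stmn4 were below the wild-type mean, between 219.6 and 246 CPM, against 237 to 273 CPM in the wild-type group (log2 fold change -0.11, SE 0.06, edgeR adjusted p = 0.588). Stmn2, known as SCG10 and enriched in growth cones, differed least. Wild-type libraries ranged from 1163 to 1385 CPM and deletion libraries from 1116 to 1321 CPM, with 3 of 5 deletion libraries above the wild-type mean and deletion 4 the lowest (log2 fold change -0.02, SE 0.07, 95% interval -0.16 to 0.12, edgeR adjusted p = 0.959).

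Tubb3 was even among the wild-type libraries, at 2576, 2616, 2569, 2516 and 2505 CPM. The deletion libraries held 2317, 2310, 2839, 2319 and 2334 CPM. Deletion 4 was the highest of the 10 libraries, and the other 4 deletion libraries were all below every wild-type library. The log2 fold change was -0.08 with deletion 4 (SE 0.07, edgeR adjusted p = 0.748) and -0.14 without it (adjusted p = 0.145). Tubb3 did not pass the test in either fit.

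**Figure D2:**
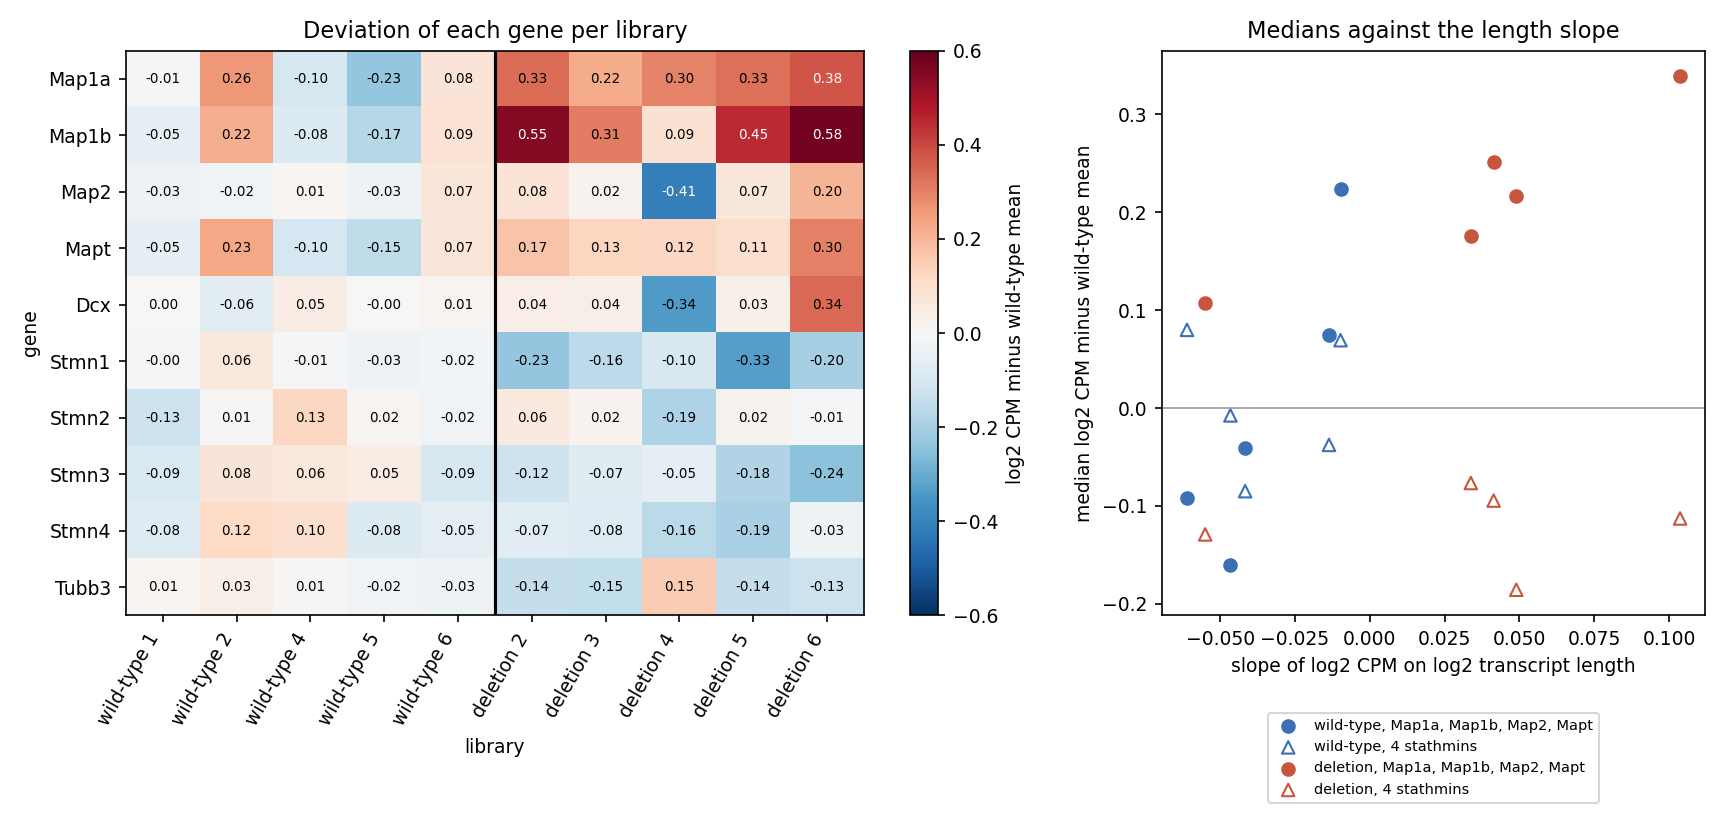
Left, log2 CPM minus the wild-type mean for each gene (rows) in each library (columns), red where higher and blue where lower. Right, the median of that deviation over Map1a, Map1b, Map2 and Mapt (filled circles) and over the 4 stathmins (open triangles), against each library's slope on log2 transcript length. Deletion 4 has a slope of -0.055 and deletion 6 one of 0.104.

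The genes did not vary as a block across libraries. In deletion 2, 3, 5 and 6 all 4 structural proteins were above their wild-type means, and 0 or 1 of the 4 stathmins was. In deletion 4 the structural proteins were above it in 3 of 4 cases and the stathmins in 0 of 4. Wild-type 2 was above the mean for 8 of the 10 genes, the most of any library, and wild-type 1 and wild-type 5 for 2 each. Within the wild-type group, Map1a, Map1b and Mapt were highest in wild-type 2 and lowest in wild-type 5, whereas Map2 and Dcx were highest in wild-type 6 and wild-type 4, respectively. The ratio of Map1b to Stmn1 in CPM, formed after their values were seen, was 0.706 to 0.865 in the wild-type libraries and 0.886 to 1.34 in the deletion libraries, lowest in deletion 4. Map1b and Stmn1 are the genes of the 10 that differed most in each direction. That choice favours a gap between the groups, so the ratio only describes them.

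Transcript length moved with these differences. A library's slope, the change of log2 CPM per doubling of transcript length relative to each gene's mean over the 10 libraries and over genes with a mean log2 CPM above 3, ran from -0.061 to -0.010 in the wild-type group. In deletion 2, 3, 5 and 6 the slopes were 0.041, 0.034, 0.049 and 0.104, and in deletion 4 it was -0.055. For the 2120 genes with a transcript of 1 to 2 kb the log2 fold changes had a median of -0.08 (quartiles -0.18 and 0.01), and 4 of the 10, Stmn1, Stmn3, Stmn4 and Tubb3, fall there with values from -0.20 to -0.08. Stmn1 lay below the lower quartile of that class and the other 3 within the quartiles. Genes of over 8 kb centred on 0.09 (901 genes, quartiles 0.00 and 0.17), and Dcx lay below that median while Map1a and Map1b lay above the upper quartile. Genes of 4 to 8 kb, with Map2 and Mapt, centred on 0.04 (4768 genes, upper quartile 0.13), and Mapt lay above that quartile.

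**Figure D3:**
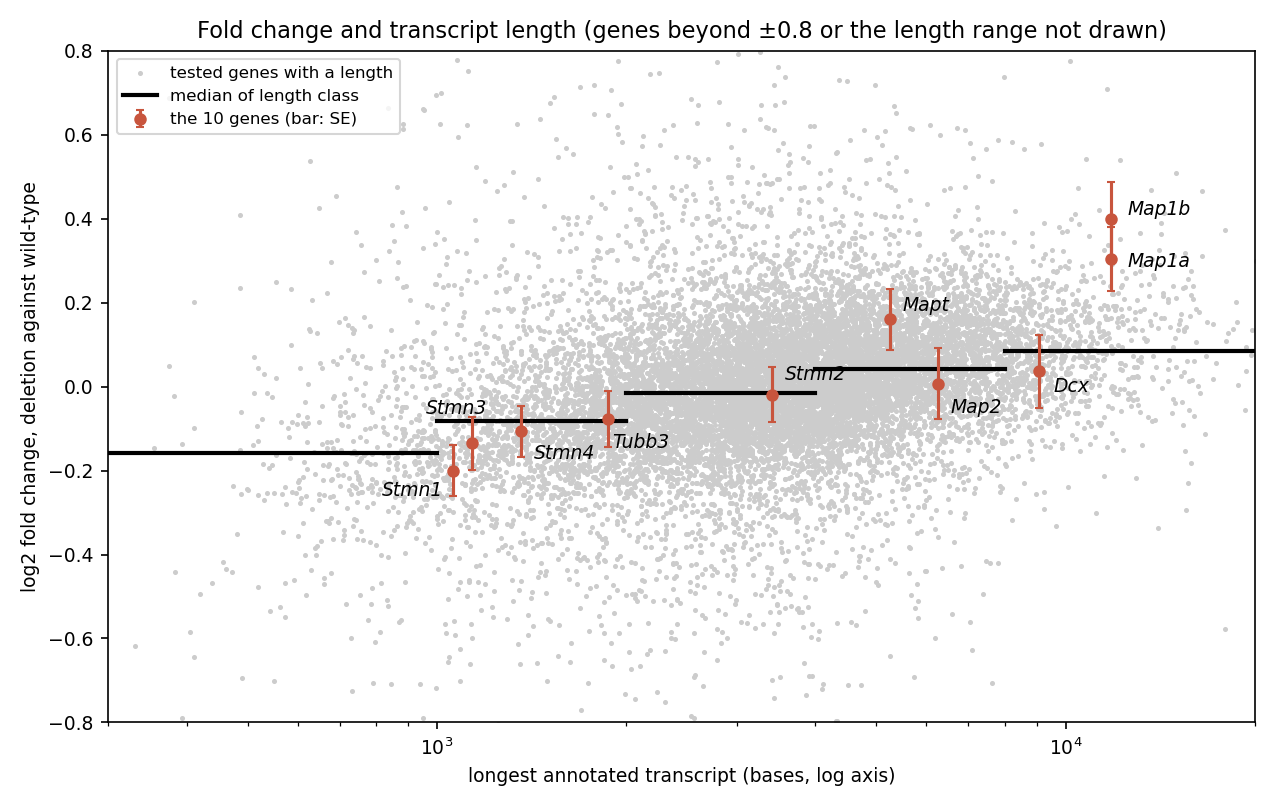
Log2 fold change (deletion against wild-type) on the vertical axis and the longest annotated transcript in bases on a log axis, for tested genes with a length (grey; genes beyond 0.8 in either direction are not drawn), the median of each length class (black lines) and the 10 genes (red, with SE). Stmn1 lies below the lower quartile of its length class (-0.18), Tubb3, Stmn2, Stmn3 and Stmn4 lie within the quartiles of theirs, and Map1a and Map1b lie above the upper quartile of theirs (0.17).

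With each library's trend on transcript length removed, the stathmins and Tubb3 came close to 0: the log2 fold changes were -0.07 for Stmn1 (SE 0.05), -0.01 for Stmn3 (SE 0.06), -0.00 for Stmn4 (SE 0.07), -0.02 for Stmn2 (SE 0.06) and -0.01 for Tubb3 (SE 0.05). Map2 and Dcx turned to -0.06 each (SE 0.07 for both). Map1b kept 0.30 (SE 0.07, 95% interval 0.17 to 0.44; unadjusted p = 0.000141) and Map1a 0.22 (SE 0.07, 95% interval 0.07 to 0.36; unadjusted p = 0.0054). Neither passed edgeR's adjusted test in that fit (0.192 and 0.456), which called 0% of all genes and in which 7.73% had an unadjusted p under 0.05. With GC content removed as well, Map1b was at 0.29 (SE 0.06, edgeR adjusted p = 0.0537) and Map1a at 0.17 (edgeR adjusted p = 0.211), in a fit that called 0.118% of all genes. For Stmn2 the longest annotated transcript, at 3413 bases, is not its coding one, at 2073 bases, so its correction is less certain. The slope of deletion 4 (-0.055) lay within the wild-type range (-0.061 to -0.010), so the slope did not follow genotype in every library. What makes the slopes differ was not tested.

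**Figure D4:**
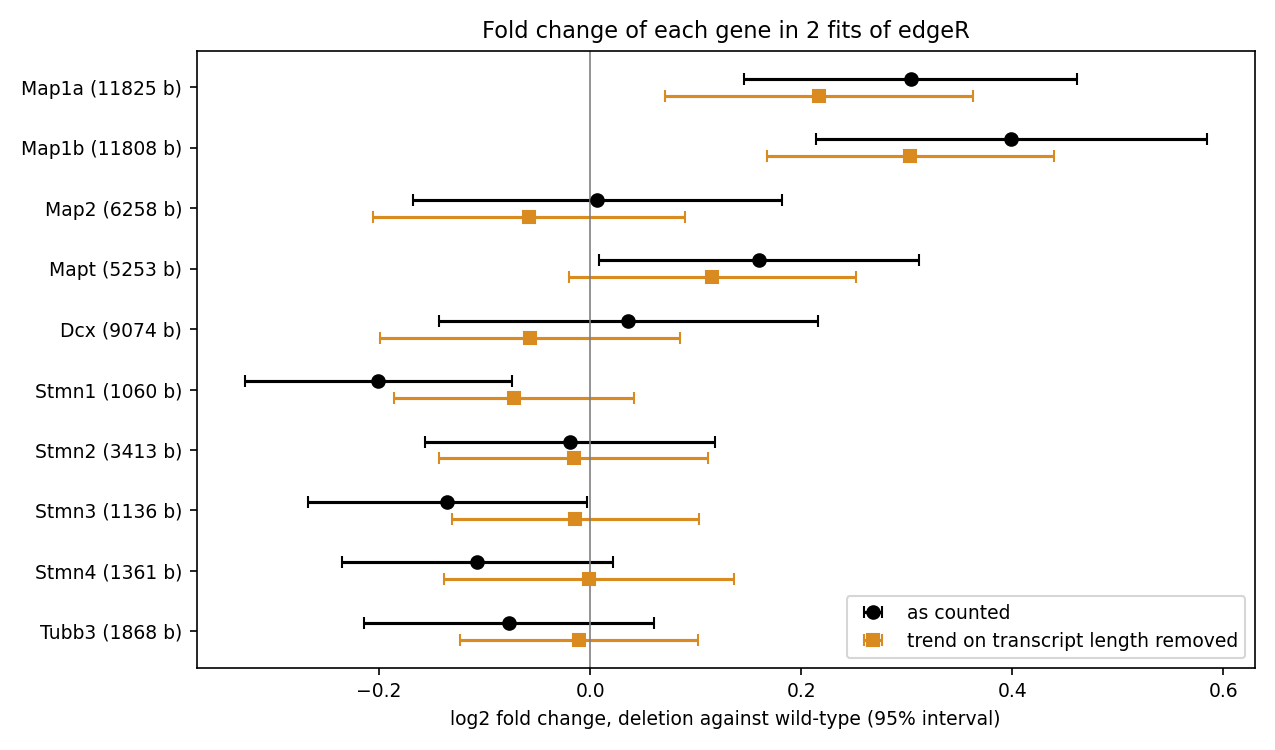
Log2 fold change of each gene with its 95% interval (not adjusted for multiple tests), as counted (black circles) and with each library's trend on transcript length removed (orange squares); the transcript length in bases (b) stands beside each name. Intervals of Map1a and Map1b lie above 0 in both fits, that of Mapt lies above 0 and those of Stmn1 and Stmn3 below 0 only as counted.

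The 10 genes also differ in how many copies of TGCATG, the motif bound in RNA by Rbfox proteins, their longest coding transcripts hold. Map1a and Map1b held 3 each, Dcx 4 and Stmn2 1, and the other 6 held none. The sites of Map1b and Map1a are shown because these genes had the largest differences; 12 bases flank the motif on either side, capitals mark it, and only the transcript strand was searched (GENCODE M21, GRCm38). In both genes site 1 lies in the coding sequence and sites 2 and 3 lie past the stop codon.
Map1b site 1, chr13:99431486-99431515, minus strand: tgtctccttctcTGCATGccgaggtgggtt
Map1b site 2, chr13:99424926-99424955, minus strand: accaagtcaagcTGCATGcagcaacaccca
Map1b site 3, chr13:99422511-99422540, minus strand: ccccgaaccccaTGCATGctttctcagtct
Map1a site 1, chr2:121307066-121307095, plus strand: cgaccggatgttTGCATGgctgaccccgag
Map1a site 2, chr2:121308862-121308891, plus strand: gcttggcttctcTGCATGtggtcatctgct
Map1a site 3, chr2:121309630-121309659, plus strand: agggtgtgatggTGCATGcctgtgatctta
Such counts follow length. Of 868 tested genes with a coding transcript over 8 kb, 93.3% held at least 1 copy, with a median of 3.0, and over 13895 genes the rate was 0.287 per kb, against 0.254 per kb in both Map1a and Map1b. Map2 and Mapt held none, where 76.2% of genes of 4 to 8 kb held at least 1. A match is no evidence of binding, and exon use, on which Rbfox proteins act, was not analysed here.

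Other genes of the microtubule system were described from 7 lists with 95 genes, of which 94 were tested. None passed edgeR's test, beside the 0.0589% of all genes. DESeq2 called 4, beside 3.28% of the 8174 genes to which it gave an adjusted p. Some of the 94, such as Map7, got no adjusted p. The 4 are named for that call after their values were seen. Camsap1 and Camsap3, which bind the minus ends of microtubules, were higher (log2 fold changes 0.21 and 0.22 in edgeR, SE 0.06 for both). Pafah1b3 (-0.21, SE 0.06) and the tubulin folding cofactor Tbca (-0.29, SE 0.07) were lower. Of the 13 proteins that bind microtubule ends, 11 were higher, with a median of 0.13, and 6 had an unadjusted p under 0.05, all higher, beside 5.62% of all genes in that direction. The most abundant were Clasp2 (0.00, SE 0.07), Mapre1 (-0.05, SE 0.07) and Mapre2 (0.18, SE 0.06). With the length trend removed, 8 of the 13 were higher and the median was 0.07.

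The tubulins other than Tubb3 had a median of 0.06, with 10 of 13 higher, against -0.08 for Tubb3. With the length trend removed, 12 of the 13 were higher with a median of 0.13, against -0.01 for Tubb3. The most abundant, the alpha-tubulin Tuba1a of young neurons (0.12, SE 0.07), Tubb2b (0.00, SE 0.06) and Tubb5 (-0.00, SE 0.06), did not pass. Tubulin genes are close copies of each other, so reads may be shared among them. The 10 other structural proteins had a median of 0.04: Map4 was at 0.13 (SE 0.07), Map6, which protects microtubules from cold, at 0.18 (SE 0.06) and Map7d1 at -0.08 (SE 0.07). Doublecortin relatives and Lis1 partners had 3 of 10 higher and a median of -0.03, with Dclk1 at 0.18 (SE 0.07), Pafah1b1, which encodes Lis1, at -0.03 (SE 0.07) and Pafah1b2 at -0.03 (SE 0.08). Severing and depolymerising enzymes (4 of 9 higher, median -0.03), tubulin-modifying enzymes and cofactors (14 of 22 higher, median 0.04) and kinases and phosphatases (13 of 17 higher, median 0.02) held no call in edgeR either. With the length trend removed, 4 of 9, 13 of 22 and 8 of 17 were higher in these lists, with medians of -0.07, 0.02 and -0.00, and the other structural proteins and doublecortin relatives had 5 of 10 and 4 of 10 higher, with medians of -0.01 and -0.07. Their most abundant genes were Spast (-0.03, SE 0.08), Kif2a (0.15, SE 0.07) and Katnal1 (0.15, SE 0.07), then Atat1 (0.11, SE 0.07), Agtpbp1 (0.07, SE 0.06) and Vash2 (0.19, SE 0.06), and Cdk5r1 (0.02, SE 0.06), Ppp2ca (-0.05, SE 0.06) and Gsk3b (0.10, SE 0.07).

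**Figure D5:**
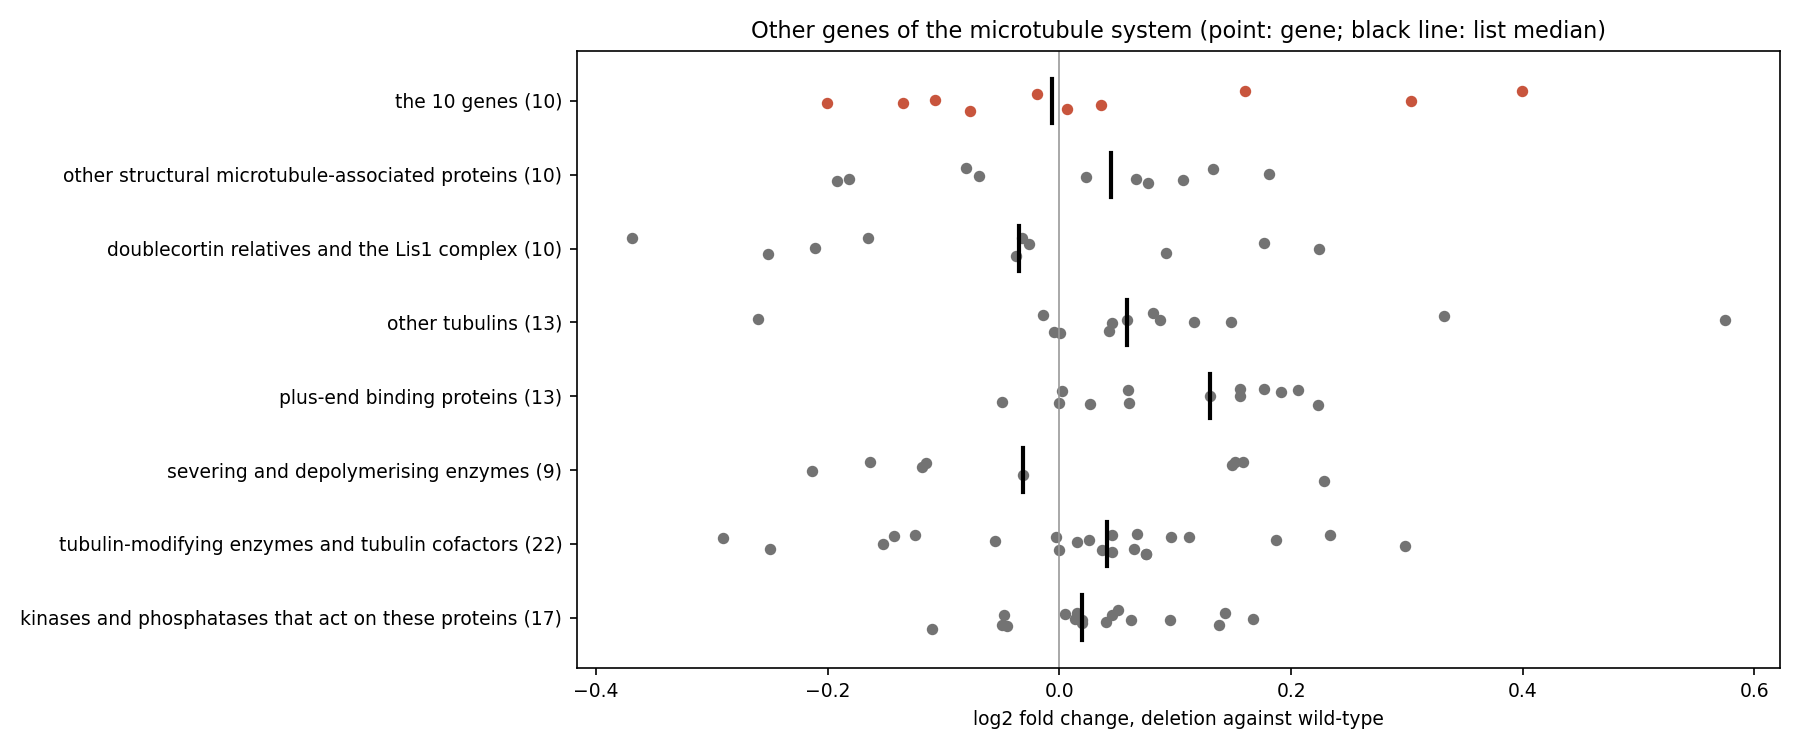
Log2 fold change (deletion against wild-type) of the 10 genes (red) and of the tested genes of 7 other lists (grey), 1 point a gene, with the number of genes in parentheses and the list median as a black line. The 10 genes run from -0.20 to 0.40 around a median of -0.01.

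In bulk tissue, more cells of a type and more RNA per cell cannot be told apart, so neuron and progenitor markers are given beside these genes. Of 20 pan-neuronal markers outside the microtubule system, 14 were higher, 7 had an unadjusted p under 0.05, all higher (5.62% of all genes in that direction), and none passed edgeR; their summed level ran from 8130 to 8967 CPM (wild-type) and from 8413 to 9341 CPM (deletion). DESeq2 called 1 of them (3.28% of the 8174 genes with an adjusted p), the adhesion molecule Ncam1 (0.27, SE 0.07, DESeq2 adjusted p = 0.0214), named after its values were seen. Of 15 progenitor markers, 12 were lower, none passed edgeR, and the sums were 1712 to 2219 and 1634 to 2210 CPM. With the length trend removed, 16 of the 20 neuronal markers were higher (median 0.07) and 12 of the 15 progenitor markers were lower (median -0.10). Their most abundant genes, Nsg2 (-0.02, SE 0.06) and Ina (0.14, SE 0.07) of neurons and Vim (-0.02, SE 0.11) and Fabp7 (-0.10, SE 0.09) of progenitors, did not pass. The same held for Olig1 (-0.04, SE 0.17) and Mbp (0.18, SE 0.08), Csf1r (0.04, SE 0.12) and Cx3cr1 (0.18, SE 0.13), Kdr (0.06, SE 0.10) and Cldn5 (-0.13, SE 0.08), Pdgfrb (0.18, SE 0.11) and Rgs5 (-0.07, SE 0.11), Col3a1 (0.08, SE 0.21) and Foxc1 (-0.10, SE 0.19), and Hba-a1 (0.15, SE 0.11) and Hbb-bs (0.13, SE 0.10), the most abundant of the other lists. No listed marker, including those that the filter on low counts left out, had 0 counts in every library. The sums of microglial (40.6 to 44.3 against 40.2 to 45.6 CPM), endothelial (145 to 179.6 against 148 to 176 CPM), oligodendrocyte-lineage (97.6 to 145 against 109 to 141 CPM), pericyte (117 to 141 against 116 to 142 CPM), meningeal (14.6 to 16.7 against 13.2 to 20.1 CPM) and red blood cell genes (1602 to 2428 against 2112 to 2845 CPM) overlapped between the groups. Within these lists all 5 tested red blood cell genes were higher (median 0.15, and 0.32 with the length trend removed). Of the oligodendrocyte-lineage genes, 6 of 7 were higher (median 0.13, and 0.14 with the trend removed). Higher also were 4 of 7 microglial, 3 of 7 endothelial, 2 of 5 pericyte and 2 of 4 meningeal genes, with medians of 0.04, -0.05, -0.07 and 0.02. None of these genes passed edgeR's test. The part of cell makeup in the differences of Map1a, Map1b and Stmn1 was not tested.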

How the data were processed

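RNA-seq of E14.5 mouse midbrain was analysed for 5 wild-type and 5 deletion libraries. The authors deposited unnormalized whole-number counts, 1 row per Entrez gene. HISAT2, featureCounts and mm39 are named per the submitters' processing notes. Not given in the sources used here were versions, annotation, strandedness and the handling of multiply mapping reads. Columns were matched to samples by title, and 0 stayed without a sample. Symbols came from RefSeq (GRCm38.p6) for 30648 of 30935 IDs, and transcript lengths from GENCODE M21 (GRCm38) for 14118 of 15288 tested genes (92.3%).

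Counts were filtered with filterByExpr, scaled by TMM and tested with edgeR 4.0.16 (R 4.3.3), by a robust quasi-likelihood F test, two-sided, with group as the only term and Benjamini-Hochberg adjustment over all tested genes (threshold 0.05). The standard error is the log2 fold change over the square root of F. For length and GC content, natural splines (4 degrees of freedom each) were fitted per library to genes averaging over 3 in log2 CPM, and their predictions served as offsets. Genes without a length got no correction. DESeq2 1.42.0, limma-voom (limma 3.58.1), other scalings and filters, a replicate block and leaving out each library were alternatives. Libraries of a group were not duplicates (lowest chi-square per degree of freedom 5.81). Each edgeR p-value sets the difference between the groups against the variation between these libraries, estimated with information shared across genes. The gene test was also run on simulated counts, drawn with dispersions estimated from these data, and no result here rests on the outcome of that run.

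The 10 genes and all lists were chosen with earlier results of these data known. Beside the 10, the text names the 3 most abundant genes of each microtubule list, any that passed, and the 2 most abundant genes of each marker list. The regional markers were chosen after the data were seen.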

Additional observations from a re-analysis of the deposited data

Results flagged for a closer look

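Within each group the highest and lowest library of each of the 10 genes, and of the length slope, was compared with the others by Dixon's test, 22 groups of 5 in all, where chance flags about 1 in 20. It singled out 2 values. Tubb3 in deletion 4 stood at 2839 CPM, while the other 4 deletion libraries lay between 2310 and 2334 CPM. Stmn1 in wild-type 2 stood at 2149 CPM, while the other 4 wild-type libraries lay between 2012 and 2051 CPM.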

How the results depend on the processing

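Over all genes, 9 calls became 15 with upper-quartile factors, 69 with no filter (26 higher, 43 lower), 268 in DESeq2, 0 with the length trend removed and 18 with GC content removed as well; leaving out 1 library gave 0 to 357 (357 without deletion 4, 88 without wild-type 2, at most 3 without any other). Of the 10 genes, 0 calls became 2 with no filter (Map1a and Map1b, 0.301% of all genes called), 3 in DESeq2 and 0 to 3 without 1 library. Their median of -0.01 ran from -0.047 without deletion 6 to 0.059 without deletion 4. Of the microtubule lists, DESeq2 called 1 doublecortin relative, 2 end-binding proteins and 1 cofactor.

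Signs changed only for 3 genes near 0. Map2 was at -0.00034 with upper-quartile factors, -0.022 with the replicate block, -0.0077 in limma-voom, -0.058 with the length trend removed and -0.069 with GC content too, and at -0.046 to 0.096 without 1 library. Dcx was at -0.057 and -0.012 in those trend fits and at -0.049 to 0.12 without 1 library. Stmn2 was at 0.035 with length and GC content removed and at -0.051 to 0.022 without 1 library. The cause was not tested. Map1a, Map1b, Mapt, Stmn1, Stmn3, Stmn4 and Tubb3 kept their sign in all 19 alternatives; without 1 library Map1b ran from 0.35 to 0.47 and Map1a from 0.25 to 0.37.

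The replicate block called 0 genes. Deviations of same-numbered libraries correlated at -0.062 to 0.046 over 4 pairs. Litter was not given, and so few pairs cannot tell whether same-numbered libraries shared a litter or a preparation.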
